A study of Homo sapiens with 12 samples.

Results

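The p53 target genes described here are CDKN1A, MDM2, GADD45A, BTG2, BAX, RRM2B, ZMAT3, FDXR, TNFRSF10B and TP53INP1, a list of 10 genes taken by name, without a threshold on their values, when earlier results of these data were known. The platform annotation gave a named probe to 8 of the 10, out of 20046 genes named on the array. BTG2 and FDXR were not analysed here. The 8 genes had 19 probes, and each probe was read on its own. Of these, 16 were detected on all 12 arrays and were tested, while MDM2 ILMN_1814208 and TNFRSF10B ILMN_2331010 were detected on no array and BAX ILMN_2258383 on 2 of 12.

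RNA came from 4 groups of human gastric cancer cells, with 3 samples each. AGS ESRRG OE and MKN45 ESRRG OE cells carried a lentiviral vector with the full-length ESRRG cDNA under an EF1 promoter and a puromycin marker, and were harvested 3 days after overexpression began. AGS control and MKN45 control cells are labelled control, after a lentiviral vector whose content the labels do not give. ESRRG is a nuclear receptor of the estrogen-related (ERR) family without a known natural hormone, and AGS and MKN45 are established gastric cancer lines. The labels give no origin for the triplicates, and a legend of the study speaks of independent replicates for a set of assays that includes the array profile, without saying which were separate cultures. Each p-value therefore refers to variation among these arrays, possibly technical in origin. In these bulk samples, fewer cells with a transcript and less of it per cell cannot be told apart.

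The transcription factor p53 is held low by MDM2, a ubiquitin ligase that is itself a p53 target, so that the pair forms a feedback loop. When DNA damage or another stress stabilizes p53, it binds response elements near its target genes, and these arrest the cell cycle (CDKN1A, GADD45A), supply nucleotides for repair (RRM2B) or promote cell death (BAX, TNFRSF10B, TP53INP1). Many of these genes also answer to other factors, among them the stress factors ATF3, ATF4 and DDIT3, FOXO proteins, KLF6 and EGR1.

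Some properties of the arrays bear on every result. ESRRG ILMN_1661994 was at 6.90 ± 0.19 in AGS ESRRG OE samples and 7.27 ± 0.10 in AGS controls (log2 signal, SD, n = 3 each), and was detected on 1 of 3 and 3 of 3 arrays. It was lower in the samples labelled ESRRG OE (adjusted p = 0.00774), with no size given because their mean lies under the lowest detected signal. The same probe was at 6.94 ± 0.09 in MKN45 ESRRG OE and 6.91 ± 0.09 in MKN45 control samples, detected on 1 array of each, and the other ESRRG probes were detected on no array. Whether these probes lie within the cloned cDNA is not given in the sources used here, so they do not check the labels, and no rise of ESRRG is shown in these data. ESRRG OE below names the samples by their label. The controls labelled MKN45 and AGS were more alike (r = 0.9882 between group means over 14978 probes, as a description) than ESRRG OE and control samples of MKN45 (0.9691) or of AGS (0.9548). The r between the ESRRG OE groups of MKN45 and AGS was 0.9774. MET, which is known to be amplified in MKN45 cells, was at 9.24 ± 0.06 in MKN45 controls and 9.06 ± 0.11 in AGS controls, a difference of 0.18 (SE 0.09, adjusted p = 0.261). Of 10 tested probes of epithelial markers, CDH1 was higher by 0.55 in MKN45 than in AGS controls, and 8 did not pass. KRT20 ILMN_1794729 was detected on no MKN45 control array and was at least 1.41-fold lower there than in AGS controls. Whether such differences identify the lines was not tested, so comparisons between lines rest on the labels alone. Of the 7 epithelial markers, 6 genes were detected on all 12 arrays, whereas 12 of 19 probes for other cell types, including PTPRC, CD3E, VWF, COL3A1 and DCN, were detected on none. The summed linear signal of those 19 probes was 3535 to 3899 in AGS ESRRG OE samples, against 2883 to 3217 in AGS controls, and 3934 to 4378 in MKN45 ESRRG OE samples, against 3057 to 3238 in MKN45 controls. CD68 and ACTA2 rose in both lines. Of the tested epithelial probes, 4 of 10 rose and 1 fell in AGS cells, where 20.3% of all probes rose and 22.7% fell. In MKN45 cells 3 of 9 rose and 2 fell, where 17% and 17.3% of all probes did. KRT8 fell in both lines, while EPCAM ILMN_3249032 rose in both. The part of all these markers in the results below was not tested.

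The p53 target genes differed between ESRRG OE and control samples in both directions. GADD45A rose in both lines, TP53INP1 and ZMAT3 ILMN_1865764 fell in both, and MDM2 fell in AGS cells but rose in MKN45 cells. In AGS cells 4 of 16 probes rose, 7 fell and the remaining 5 missed the threshold, which is 11 called where 43.0% of all probes were called (20.3% rose and 22.7% fell). In MKN45 cells 5 rose, 6 fell and 5 missed it, again 11 called, against a background of 34.3% (17% rose and 17.3% fell). Called means an adjusted p under 0.05 from limma over all detected probes. The median log2 fold change of the 16 probes was -0.19 in AGS and -0.05 in MKN45 cells, beside -0.02 over all probes tested in each. Groups did not overlap for 12 of 16 probes in AGS cells, where 51.2% of all probes did not, and for 11 of 16 in MKN45 cells, where 45.4% did not.

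**Figure D1:**
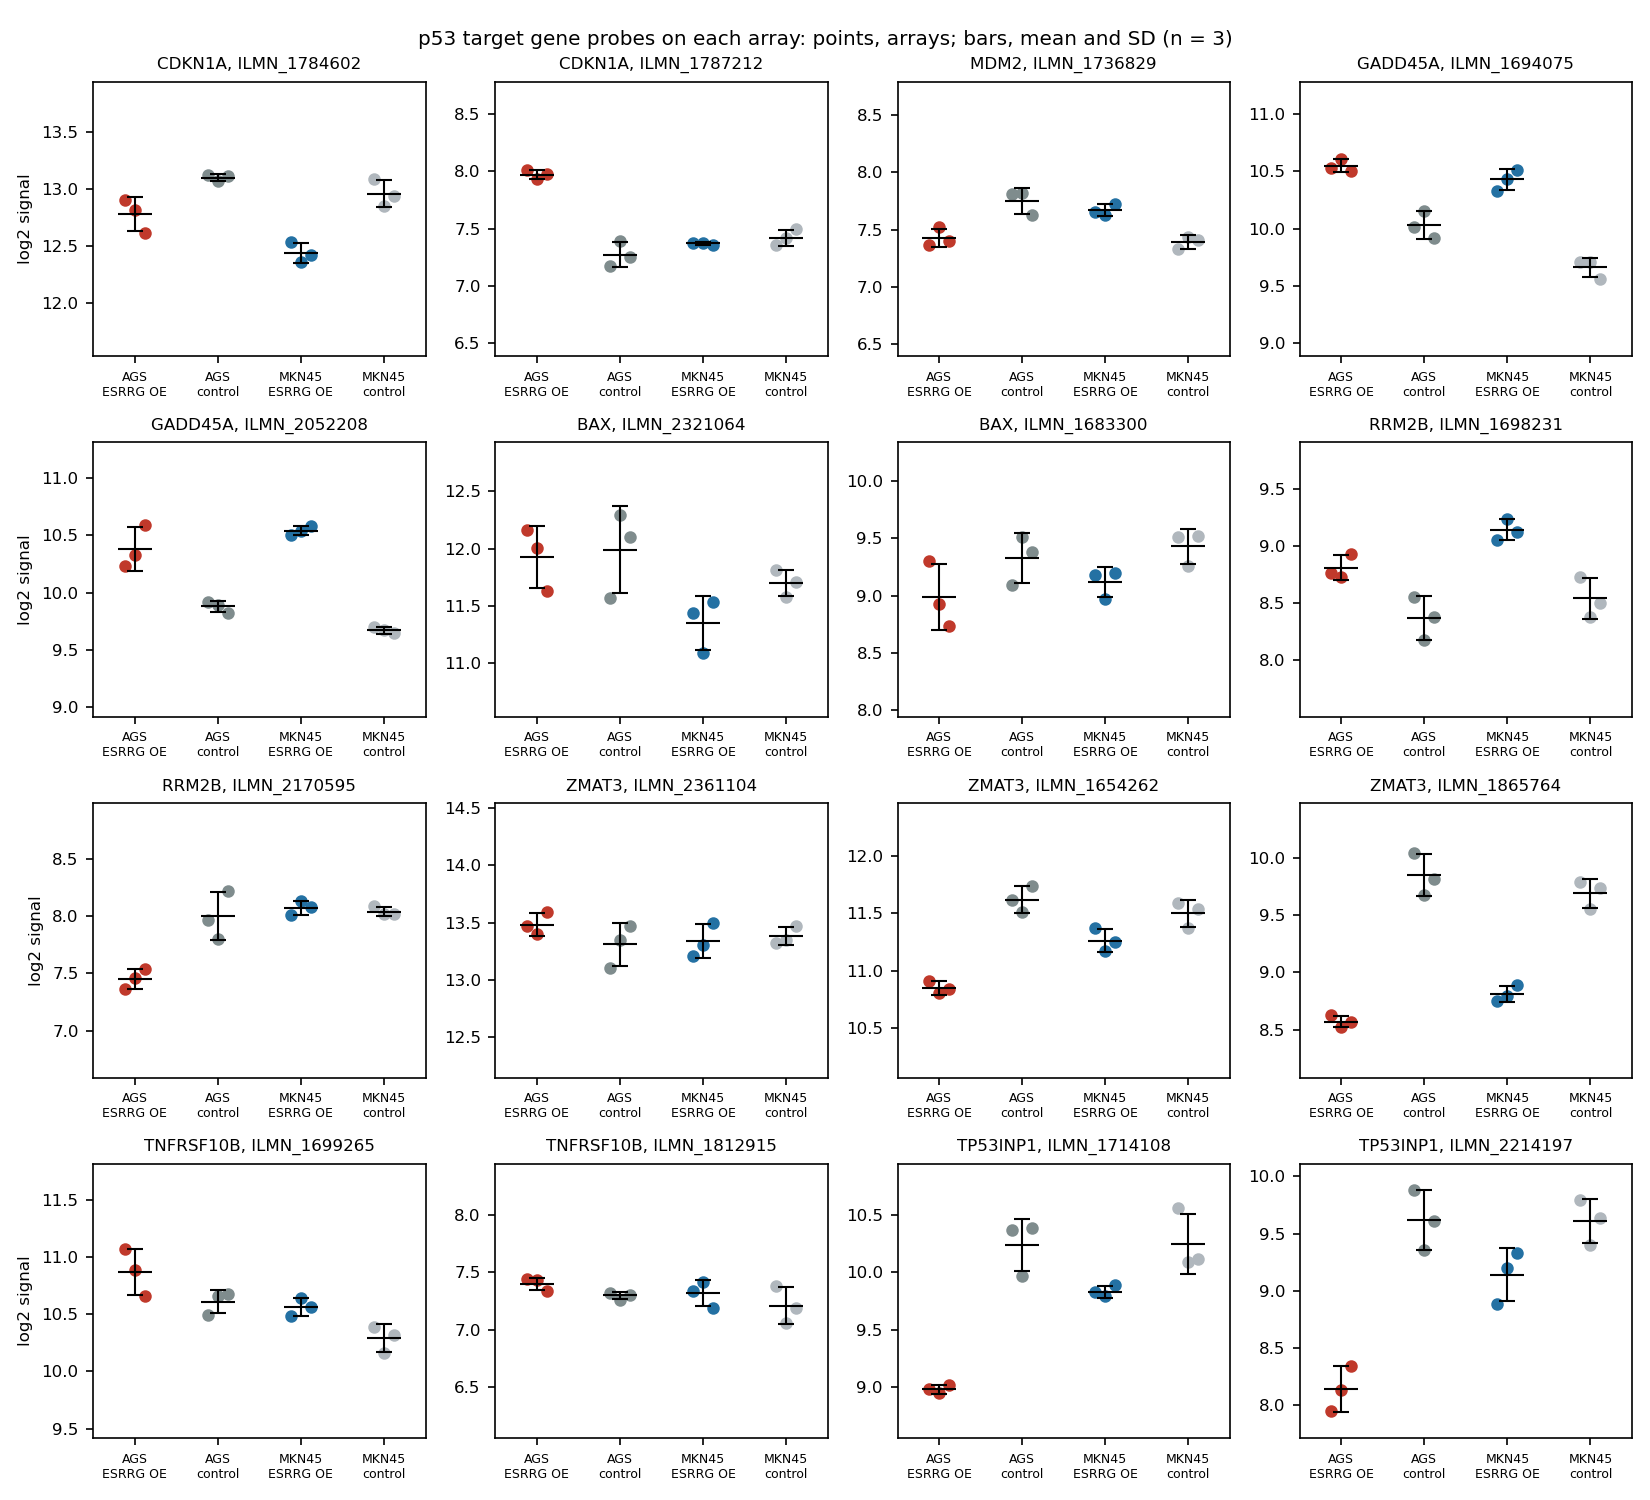
Log2 signal (y axis, each panel spanning the same number of units around its own level) of the 16 tested probes on each array by group (x axis). Points are arrays and black bars are the mean with its SD (n = 3). In both lines the ESRRG OE points lie above the controls for GADD45A and below them for TP53INP1, while MDM2 lies lower in AGS and higher in MKN45 ESRRG OE samples.

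CDKN1A encodes p21, the cyclin-dependent kinase inhibitor through which p53 halts the cell cycle, and its probes did not move together. CDKN1A ILMN_1784602 read 12.90, 12.82 and 12.62 in AGS ESRRG OE samples, against 13.12, 13.07 and 13.11 in AGS controls, on the log2 signal scale used throughout. It read 12.54, 12.36 and 12.42 in MKN45 ESRRG OE samples, against 13.09, 12.85 and 12.94 in MKN45 controls. The groups did not overlap in either line. CDKN1A therefore fell by 0.32 in AGS cells (SE 0.09, adjusted p = 0.0092) and by 0.52 in MKN45 cells (SE 0.09, adjusted p = 0.000542) at this probe. The AGS call was lost with background correction (log2 fold change -0.33, adjusted p = 0.0568), and when arrays were scaled to the median of detected probes the AGS value moved to -0.54 and stayed called.

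CDKN1A ILMN_1787212, annotated to another transcript of the gene, rose in AGS cells. It read 8.01, 7.93 and 7.98 in AGS ESRRG OE samples, against 7.17, 7.39 and 7.25 in AGS controls. In MKN45 ESRRG OE samples it read 7.37, 7.37 and 7.36, against 7.36, 7.42 and 7.50 in MKN45 controls, so those groups overlapped. The change was 0.70 in AGS cells (SE 0.09, adjusted p = 1.04e-05) and -0.06 in MKN45 cells (95% interval -0.22 to 0.11, adjusted p = 0.609). The changes differed between the lines by -0.76 (SE 0.11, interaction adjusted p = 0.000295). The lowest detected signal lay between 6.959 and 7.011 on the 12 arrays, so this probe was read close to background, and with background correction its AGS change became 1.38. In AGS cells, one CDKN1A probe thus fell while the other rose, and which of them reports the total transcript was not tested.

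MDM2 was read by a single detected probe, ILMN_1736829, and it moved in opposite directions. It read 7.37, 7.52 and 7.40 in AGS ESRRG OE samples, against 7.81, 7.82 and 7.63 in AGS controls. It read 7.65, 7.63 and 7.72 in MKN45 ESRRG OE samples, against 7.33, 7.44 and 7.41 in MKN45 controls. In each line all 3 ESRRG OE samples lay on one side of the 3 controls. MDM2 fell by 0.33 in AGS cells (SE 0.09, adjusted p = 0.00726) and rose by 0.27 in MKN45 cells (SE 0.08, adjusted p = 0.0138), and the difference between the changes was 0.60 (SE 0.11, adjusted p = 0.00252). Background correction enlarged the changes to -0.63 and 0.55. The AGS call was lost when arrays were scaled to a common median (-0.17, adjusted p = 0.21), and the MKN45 call was lost when they were scaled to the median of detected probes (0.17, adjusted p = 0.143) or without MKN45 ESRRG OE replicate 3 (0.25, adjusted p = 0.0558).

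The promoter sequences of MDM2 and CDKN1A are shown because both genes changed and MDM2 carries the p53 elements of the feedback loop. They are RefSeq windows of build GRCh38.p14 on the plus strand, each with 250 bases before and 50 after an annotated transcript start, and capitals mark matches to the p53 full site (20 bases, at most 3 mismatches) or to the ERR motif AAGGTCA. Of the members, MDM2, CDKN1A, BTG2, BAX, ZMAT3 and FDXR matched an entry. MDM2 had 4 windows in 2 overlapping pairs. At the downstream promoter, the p53-responsive one in background knowledge, both windows held p53 full sites. Only the downstream window printed here also held the ERR motif.
MDM2 downstream promoter, chr12:68808767-68809066: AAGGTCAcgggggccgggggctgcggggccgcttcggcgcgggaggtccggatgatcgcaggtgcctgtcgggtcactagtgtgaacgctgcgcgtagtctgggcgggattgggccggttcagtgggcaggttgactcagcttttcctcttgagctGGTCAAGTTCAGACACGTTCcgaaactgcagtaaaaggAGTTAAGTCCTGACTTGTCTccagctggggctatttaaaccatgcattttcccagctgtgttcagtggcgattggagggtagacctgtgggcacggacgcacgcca
MDM2 upstream promoter, chr12:68807922-68808221: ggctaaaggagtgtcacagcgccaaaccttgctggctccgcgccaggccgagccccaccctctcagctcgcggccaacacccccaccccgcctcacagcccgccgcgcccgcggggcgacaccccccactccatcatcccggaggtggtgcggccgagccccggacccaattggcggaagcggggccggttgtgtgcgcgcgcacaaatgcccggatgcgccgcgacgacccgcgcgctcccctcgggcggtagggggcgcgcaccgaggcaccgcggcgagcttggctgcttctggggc
CDKN1A promoter, chr6:36678464-36678763: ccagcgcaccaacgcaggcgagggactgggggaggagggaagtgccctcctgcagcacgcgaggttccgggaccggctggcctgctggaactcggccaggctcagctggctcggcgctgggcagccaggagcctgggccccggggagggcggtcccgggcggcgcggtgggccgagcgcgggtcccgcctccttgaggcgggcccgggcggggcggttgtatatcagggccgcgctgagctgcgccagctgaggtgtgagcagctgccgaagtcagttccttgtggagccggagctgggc
The downstream MDM2 window held 2 p53 full sites, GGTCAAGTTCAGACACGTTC starting 94 bases and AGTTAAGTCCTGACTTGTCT starting 56 bases before the transcript start, and 1 ERR motif at 250 bases before it. The other downstream MDM2 window held the same 2 p53 full sites, starting 101 and 63 bases before its own transcript start, and no ERR motif. At least 1 p53 full site occurs in 5.2% and 2 or more in 0.313% of 35116 RefSeq windows of the same length, and AAGGTCA on either strand occurs in 3.92%. FDXR, which has no named probe, held 1 p53 full site in 1 of its 2 windows, GGGCAGGAGCGGGCTTGCCC starting 21 bases before the start, and no ERR motif. The upstream MDM2 windows and those of CDKN1A, BTG2, BAX and ZMAT3 held no match of either kind in these 300 bases. A match describes letters only, and whether the MDM2 probe separates transcripts of its promoters is not given in the sources used here.

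GADD45A, a stress-induced protein that binds PCNA and slows the G2 to M transition, rose at both of its probes in both lines. GADD45A ILMN_1694075 read 10.53, 10.61 and 10.50 in AGS ESRRG OE samples, against 10.01, 10.15 and 9.92 in AGS controls, and the rise was 0.52 (SE 0.09, adjusted p = 0.000213). In MKN45 ESRRG OE samples it read 10.33, 10.43 and 10.51, against 9.71, 9.71 and 9.56 in MKN45 controls, a rise of 0.76 (SE 0.08, adjusted p = 1.5e-05). GADD45A ILMN_2052208 rose by 0.51 in AGS cells (10.38 ± 0.19 in ESRRG OE and 9.88 ± 0.05 in control samples) and by 0.87 in MKN45 cells (10.54 ± 0.04 and 9.67 ± 0.03). No group overlapped its control at either probe. The changes were 0.24 and 0.36 larger in MKN45 than in AGS cells, which did not pass the interaction test (adjusted p = 0.219 and 0.0745). The second difference passed without AGS ESRRG OE replicate 3 (0.46, adjusted p = 0.0127), the sample with the highest value of its group.

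RRM2B encodes the p53-inducible small subunit of ribonucleotide reductase, and its probes disagreed in AGS cells. RRM2B ILMN_1698231 read 8.76, 8.73 and 8.93 in AGS ESRRG OE samples, against 8.55, 8.18 and 8.38 in AGS controls. It read 9.05, 9.23 and 9.12 in MKN45 ESRRG OE samples, against 8.73, 8.38 and 8.50 in MKN45 controls. This probe rose in both lines, by 0.44 (SE 0.10, adjusted p = 0.00277) and by 0.60 (SE 0.10, adjusted p = 0.000359). RRM2B ILMN_2170595 read 7.36, 7.46 and 7.54 in AGS ESRRG OE samples, against 7.97, 7.80 and 8.22 in AGS controls, a change of -0.54 (SE 0.10, adjusted p = 0.000576). In MKN45 cells it was 8.07 ± 0.06 in ESRRG OE and 8.04 ± 0.04 in control samples, a change of 0.03 (95% interval -0.14 to 0.20, adjusted p = 0.801), and the lines differed by 0.57 (SE 0.13, adjusted p = 0.0105). Both probes are annotated to the same transcript, yet in AGS cells one rose and the other fell without overlap of the groups. With background correction the fall of the second probe became -0.98.

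BAX, which permeabilizes the mitochondrial outer membrane in apoptosis, fell at both probes in MKN45 cells and passed the test at neither in AGS cells. BAX ILMN_2321064 read 12.16, 12.01 and 11.63 in AGS ESRRG OE samples, against 11.57, 12.29 and 12.10 in AGS controls, and these groups overlapped (-0.05, 95% interval -0.39 to 0.29, adjusted p = 0.825). It read 11.44, 11.09 and 11.53 in MKN45 ESRRG OE samples, against 11.81, 11.58 and 11.71 in MKN45 controls, and fell by 0.35 (SE 0.11, adjusted p = 0.0269). BAX ILMN_1683300 fell by 0.31 in MKN45 cells (9.12 ± 0.13 in ESRRG OE and 9.43 ± 0.15 in control samples, adjusted p = 0.0224) and was -0.34 in AGS cells (8.99 ± 0.29 and 9.33 ± 0.22, adjusted p = 0.054). Both MKN45 calls were lost when certain single arrays were left out: without MKN45 ESRRG OE replicate 2 they were -0.21 and -0.24, without MKN45 control replicate 1 they were -0.29 and -0.27, and without MKN45 control replicate 3 they were -0.34 and -0.27, with adjusted p between 0.0748 and 0.151. Scaled to a common median, the MKN45 values were -0.09 and -0.02. In AGS cells ILMN_1683300 passed the test when ESRRG OE replicate 1 was left out (-0.50, adjusted p = 0.00519), and likewise control replicate 1 (-0.46, adjusted p = 0.0136).

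TNFRSF10B encodes the death receptor DR5, which binds the ligand TRAIL. TNFRSF10B ILMN_1699265 read 11.07, 10.89 and 10.66 in AGS ESRRG OE samples, against 10.49, 10.66 and 10.68 in AGS controls, and 10.48, 10.64 and 10.56 in MKN45 ESRRG OE samples, against 10.39, 10.16 and 10.32 in MKN45 controls. AGS ESRRG OE replicate 3 lay within the range of its controls, whereas the MKN45 groups did not overlap. The difference was 0.27 in each line, called in MKN45 (SE 0.09, adjusted p = 0.0251) but not in AGS cells (SE 0.10, adjusted p = 0.0522), and the changes differed by 0.01 (95% interval -0.28 to 0.30). In AGS cells it passed without ESRRG OE replicate 3 (0.37, adjusted p = 0.00784). In MKN45 cells the call was lost without ESRRG OE replicate 2 (0.23, adjusted p = 0.119) or 3 (0.27, adjusted p = 0.0533), and without control replicate 2 (0.21, adjusted p = 0.0748) or 3 (0.29, adjusted p = 0.0513). TNFRSF10B ILMN_1812915 changed by 0.11 in each line, with 95% intervals of -0.07 to 0.28 in AGS and -0.10 to 0.31 in MKN45 cells.

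TP53INP1, a nuclear protein that promotes p53 phosphorylation and cell death and also takes part in autophagy, had the lowest log2 fold change among the 16 probes in AGS cells. TP53INP1 ILMN_2214197 read 7.95, 8.13 and 8.34 in AGS ESRRG OE samples, against 9.88, 9.36 and 9.61 in AGS controls. TP53INP1 ILMN_1714108 read 8.98, 8.95 and 9.02 in AGS ESRRG OE samples, against 10.37, 9.97 and 10.39 in AGS controls. The groups lay far apart at both probes, and TP53INP1 fell by 1.48 (2.79-fold, SE 0.12, adjusted p = 2.54e-07) and by 1.26 (2.4-fold, SE 0.11, adjusted p = 2.45e-07). In MKN45 cells ILMN_2214197 read 8.88, 9.20 and 9.33 in ESRRG OE samples, against 9.79, 9.40 and 9.64 in controls, and ILMN_1714108 read 9.83, 9.79 and 9.89, against 10.56, 10.09 and 10.12. TP53INP1 fell there too, by 0.48 (SE 0.12, adjusted p = 0.00797) and by 0.42 (SE 0.11, adjusted p = 0.0102). The falls were smaller in MKN45 than in AGS cells by 1.0 (SE 0.19, adjusted p = 0.00308) and 0.84 (SE 0.16, adjusted p = 0.00359). Scaled to a common median, the MKN45 falls were -0.18 and -0.10 and were no longer called, while the AGS falls were -1.25 and -1.04.

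ZMAT3, also called Wig-1, is an RNA-binding zinc finger protein induced by p53, and its 3 probes gave 3 different readings. ZMAT3 ILMN_1865764, annotated to a cDNA clone, read 8.63, 8.52 and 8.57 in AGS ESRRG OE samples, against 10.04, 9.68 and 9.82 in AGS controls. It read 8.75, 8.79 and 8.89 in MKN45 ESRRG OE samples, against 9.79, 9.55 and 9.74 in MKN45 controls. It fell by 1.27 in AGS (SE 0.10, adjusted p = 8.86e-08) and by 0.88 in MKN45 cells (SE 0.09, adjusted p = 6.7e-06). ZMAT3 ILMN_1654262 fell by 0.77 in AGS cells (10.85 ± 0.06 in ESRRG OE and 11.62 ± 0.12 in control samples, adjusted p = 4.82e-06) and changed by -0.24 in MKN45 cells (11.26 ± 0.10 and 11.50 ± 0.12, adjusted p = 0.0525), a difference between lines of 0.54 (SE 0.12, adjusted p = 0.0105). That MKN45 value was -0.30 without MKN45 control replicate 2 (adjusted p = 0.0179) and -0.29 without MKN45 ESRRG OE replicate 1 (adjusted p = 0.0434). ZMAT3 ILMN_2361104, annotated to the same transcript as ILMN_1654262, changed by 0.18 in AGS (95% interval -0.04 to 0.39) and -0.04 in MKN45 cells (95% interval -0.24 to 0.15). The line difference at ILMN_1865764 was 0.39 (adjusted p = 0.0734) and 0.48 without AGS control replicate 2 (adjusted p = 0.0325).

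**Figure D2:**
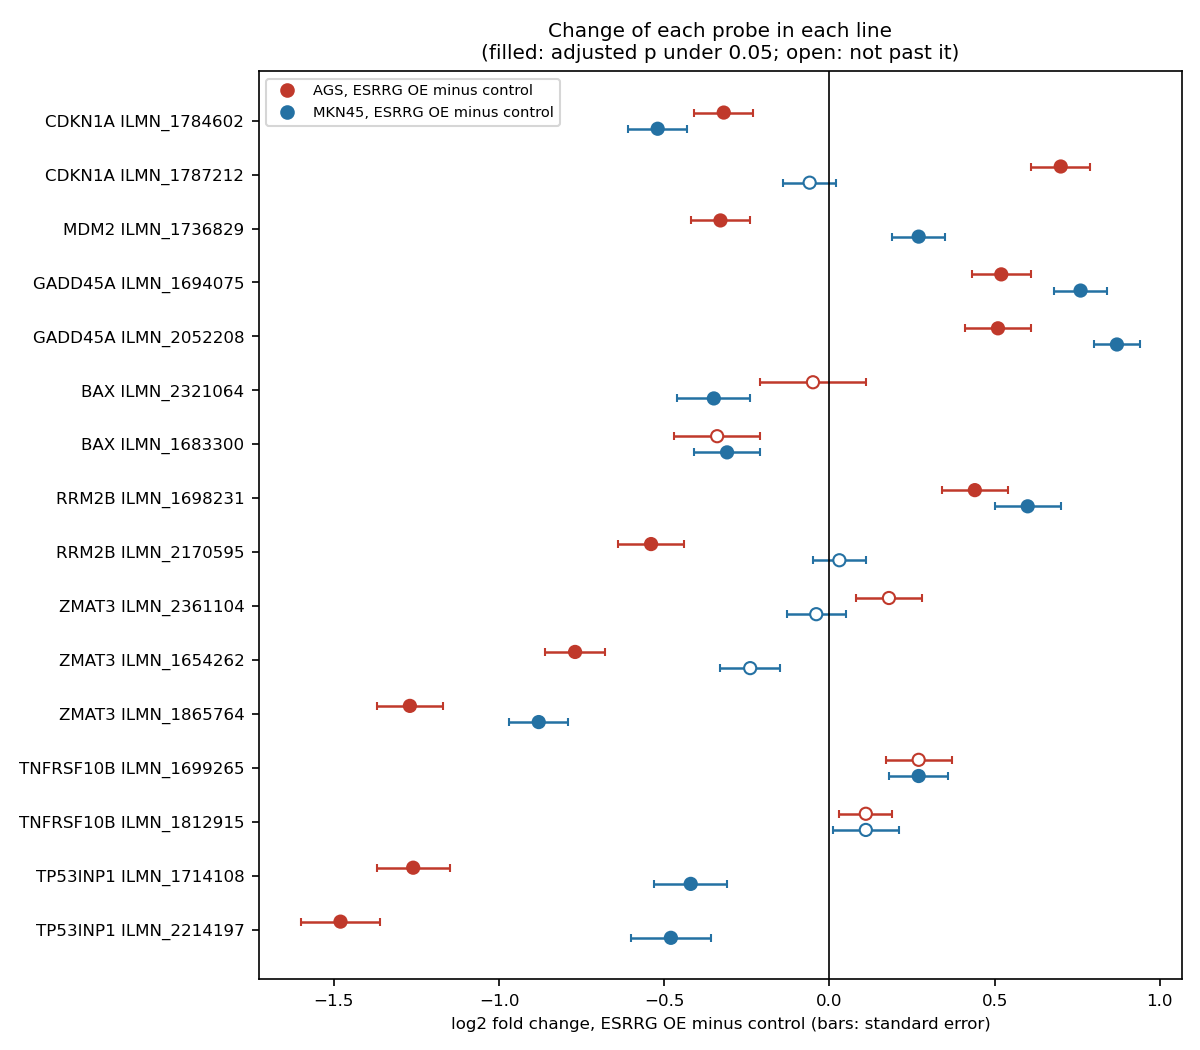
Log2 fold change, ESRRG OE minus control, of each of the 16 probes (rows) in AGS (red, upper point) and MKN45 (blue, lower point), with standard error bars. Filled points passed an adjusted p of 0.05 and open points did not. GADD45A is right of 0 in both lines, TP53INP1 is left of 0 in both, and MDM2 and CDKN1A ILMN_1787212 are set apart between the lines.

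The lines were then compared directly. Of 16 probes, 6 had a change that differed between MKN45 and AGS cells, 5 of them with a positive difference and 1 (CDKN1A ILMN_1787212) with a negative one, where 8.46% of all probes were called (4.12% positive and 4.34% negative). The positive ones were MDM2, RRM2B ILMN_2170595, ZMAT3 ILMN_1654262 and both TP53INP1 probes, each of which fell in AGS cells. The median difference was 0.20, beside 0.01 over all probes tested. Between the controls of the lines, 3 of 16 probes were called, all lower in MKN45, where 10.5% of all probes were called (4.83% higher and 5.67% lower). MDM2 was at 7.39 ± 0.06 in MKN45 and 7.75 ± 0.11 in AGS controls (-0.36, SE 0.09, adjusted p = 0.018), GADD45A ILMN_1694075 at 9.66 ± 0.08 and 10.03 ± 0.12 (-0.37, SE 0.10, adjusted p = 0.0195), and TNFRSF10B ILMN_1699265 at 10.29 ± 0.12 and 10.61 ± 0.10 (-0.32, SE 0.10, adjusted p = 0.0423). MDM2 lost its call without AGS control replicate 1 (-0.33, adjusted p = 0.0657) or MKN45 control replicate 1 (-0.33, adjusted p = 0.0659). Without AGS control replicate 1 the number of called member probes stayed at 3, because 1 other member probe then passed. TNFRSF10B lost its call without AGS control replicate 3 (-0.28, adjusted p = 0.15) or MKN45 control replicate 2 (-0.26, adjusted p = 0.136). No member was called when AGS control replicate 2 or MKN45 control replicate 3 was left out. In the order of the 4 groups, MDM2 was highest in AGS controls (7.75 ± 0.11), followed by MKN45 ESRRG OE (7.67 ± 0.05), AGS ESRRG OE (7.43 ± 0.08) and MKN45 controls (7.39 ± 0.06). The ranges of AGS controls and MKN45 ESRRG OE overlapped, as did those of AGS ESRRG OE and MKN45 controls.

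Among further p53 targets, falls also outnumbered rises in AGS cells. Of 40 tested probes on this list of 40 genes, 10 rose, 20 fell and 10 did not pass in AGS cells, with a median of -0.23, where 20.3% of all probes rose and 22.7% fell. In MKN45 cells 7 of 43 rose, 10 fell and 26 did not pass, with a median of -0.04, near the 17% and 17.3% of all probes that rose and fell. TP53I3, an oxidoreductase, fell by 1.38 in AGS cells (ILMN_2358919, 9.42, 9.48 and 9.49 in ESRRG OE samples, against 10.81, 10.90 and 10.81 in controls) and by 0.74 in MKN45 cells (9.15 ± 0.15 in ESRRG OE and 9.90 ± 0.11 in control samples). TP53I3 ILMN_1651967 changed by -0.53 in AGS cells (adjusted p = 7.91e-05) and by -0.06 in MKN45 cells (adjusted p = 0.574). TRIAP1, a small survival protein, and EI24, an endoplasmic reticulum protein, fell by 1.04 and 1.0 in AGS and by 0.36 and 0.44 in MKN45 cells. SFN, the 14-3-3 sigma protein of G2 arrest, fell by 0.74 in AGS and 0.76 in MKN45 cells. On the other side, PMAIP1, the BH3-only protein NOXA, rose by 0.64 in AGS and 1.23 in MKN45 cells (ILMN_2098446), and GDF15, a secreted stress cytokine, rose by 0.60 and 0.69.

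The further targets also differed between the lines in 13 of 43 probes, all 13 with a positive difference, where 4.12% of all probes were called with a positive and 4.34% with a negative one. SESN1, an inhibitor of mTORC1 signalling, was the only one of those named here that passed in opposite directions. SESN1 read 9.07, 9.23 and 8.97 in AGS ESRRG OE samples, against 9.55, 9.44 and 9.54 in AGS controls, and fell by 0.42 (adjusted p = 0.0014). It read 10.04, 10.05 and 10.04 in MKN45 ESRRG OE samples, against 9.52, 9.40 and 9.54 in MKN45 controls, and rose by 0.56 (adjusted p = 0.000105). The difference of 0.98 (SE 0.11, adjusted p = 2.74e-05) had the same sign as that of MDM2. TRIAP1 differed by 0.68, TP53I3 ILMN_2358919 by 0.63 and TP53I3 ILMN_1651967 by 0.46.

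Of 23 tested probes of the p53 family and its regulators, 2 rose, 6 fell and 15 did not pass in AGS cells, where 43.0% of all probes were called. In MKN45 cells 3 of 22 rose, 2 fell and 17 did not pass, where 34.3% of all probes were called. PPP1R13L (iASPP), an inhibitor of p53, rose by 0.75 in AGS and 0.90 in MKN45 cells, and TP53BP2 (ASPP2), which helps p53 select apoptotic targets, rose by 0.67 and 0.53. PPM1D, the phosphatase WIP1 that is itself a p53 target and opposes p53 phosphorylation, was the 1 regulator whose change differed between lines. PPM1D read 7.84, 7.81 and 8.16 in AGS ESRRG OE samples, against 8.73, 8.47 and 8.88 in AGS controls (-0.75, SE 0.12, adjusted p = 9.01e-05), and 8.77 ± 0.14 in MKN45 ESRRG OE against 8.72 ± 0.04 in MKN45 control samples (0.04, adjusted p = 0.739). The difference between the lines was 0.80 (SE 0.15, adjusted p = 0.00323).

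Among cell cycle genes that p53 and CDKN1A are known to repress, falls outnumbered rises. In AGS cells 1 of 24 tested probes rose, 13 fell and 10 did not pass (median -0.27), where 22.7% of all probes fell. In MKN45 cells 4 rose, 11 fell and 9 did not pass (median -0.15), where 17.3% of all probes fell. CDC20, the activator of the anaphase-promoting complex, fell by 0.72 in AGS (10.12 ± 0.16 in ESRRG OE and 10.85 ± 0.08 in control samples) and by 0.75 in MKN45 cells (10.19 ± 0.16 and 10.94 ± 0.08). BIRC5 (survivin) ILMN_2349459 fell by 0.74 and 0.65, and the phosphatase CDC25A by 0.66 and 0.80 at ILMN_1711005. CDC25A ILMN_1733396 was near background, at 7.08 ± 0.07 in AGS ESRRG OE and 7.11 ± 0.05 in AGS control samples. That probe was detected on 1 array of each MKN45 group. CDK1 ILMN_1747911 and CDC25C ILMN_2407619 rose in MKN45 cells, by 0.33 and 0.39, beside -0.08 (adjusted p = 0.426) and -0.05 (adjusted p = 0.699) in AGS cells. Their line differences were 0.41 (adjusted p = 0.0321) and 0.44 (adjusted p = 0.0339). Another CDC25C probe, ILMN_2294431, was the 1 that rose in AGS cells, by 0.28. It was at 8.02 ± 0.20 in MKN45 ESRRG OE and 7.82 ± 0.12 in MKN45 control samples.

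Of 25 tested probes of paralogs of the members, 13 rose and 6 fell in AGS cells (median 0.40), where 20.3% of all probes rose and 22.7% fell. In MKN45 cells 10 rose and 7 fell (median 0.10), where 17% and 17.3% did. BTG1, the antiproliferative paralog of BTG2, rose by 1.63 in AGS cells (12.06, 12.03 and 11.97 in ESRRG OE samples, against 10.39, 10.37 and 10.41 in controls) and by 1.22 in MKN45 cells. TP53INP2 rose by 0.75 in AGS and 0.82 in MKN45 cells, the opposite direction to TP53INP1. MCL1, a survival protein of the BCL2 family, rose by 1.16 and 1.06 at ILMN_1756806. MCL1 ILMN_1803988 rose in AGS cells by 0.82, with 0.05 in MKN45 cells (adjusted p = 0.752). The line difference at that probe was -0.77 (adjusted p = 0.00247). CDKN1C (p57), a paralog of CDKN1A, was detected on no MKN45 ESRRG OE array and was at least 1.4-fold lower there than in MKN45 controls, a bound taken against the lowest detected signal of each array (adjusted p = 0.000144). In AGS cells CDKN1C was detected on 1 of 3 ESRRG OE arrays and all 3 control arrays and was lower in ESRRG OE samples (adjusted p = 7.82e-07), at 6.94 ± 0.09 against 8.07 ± 0.22 in controls, with no fold given because the ESRRG OE mean lies under the lowest detected signal.

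Most probes of other factors known to act on member promoters rose. In AGS cells 15 of 21 tested probes rose, 1 fell and 5 did not pass (median 0.78), where 20.3% of all probes rose. In MKN45 cells 14 rose, 1 fell and 6 did not pass (median 0.79), where 17% rose, with probes of 12 genes in each. DDIT3 (CHOP), the endoplasmic reticulum stress factor, read 9.77, 9.76 and 9.88 in AGS ESRRG OE samples, against 8.30, 8.39 and 8.26 in AGS controls, a rise of 1.49. It read 10.37, 10.47 and 10.11 in MKN45 ESRRG OE samples, against 8.24, 8.27 and 8.36 in MKN45 controls, a rise of 2.03. EGR1 rose by 1.45 in AGS and 1.51 in MKN45 cells, KLF6 by 1.48 and 0.71, ATF3 by 0.94 and 1.39, and FOXO3 ILMN_1844692 by 0.95 and 0.61. E2F1 fell by 0.29 in AGS cells and SP1 by 0.42 in MKN45 cells. Their part in the changes of GADD45A and the other p53 targets was not tested.

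**Figure D3:**
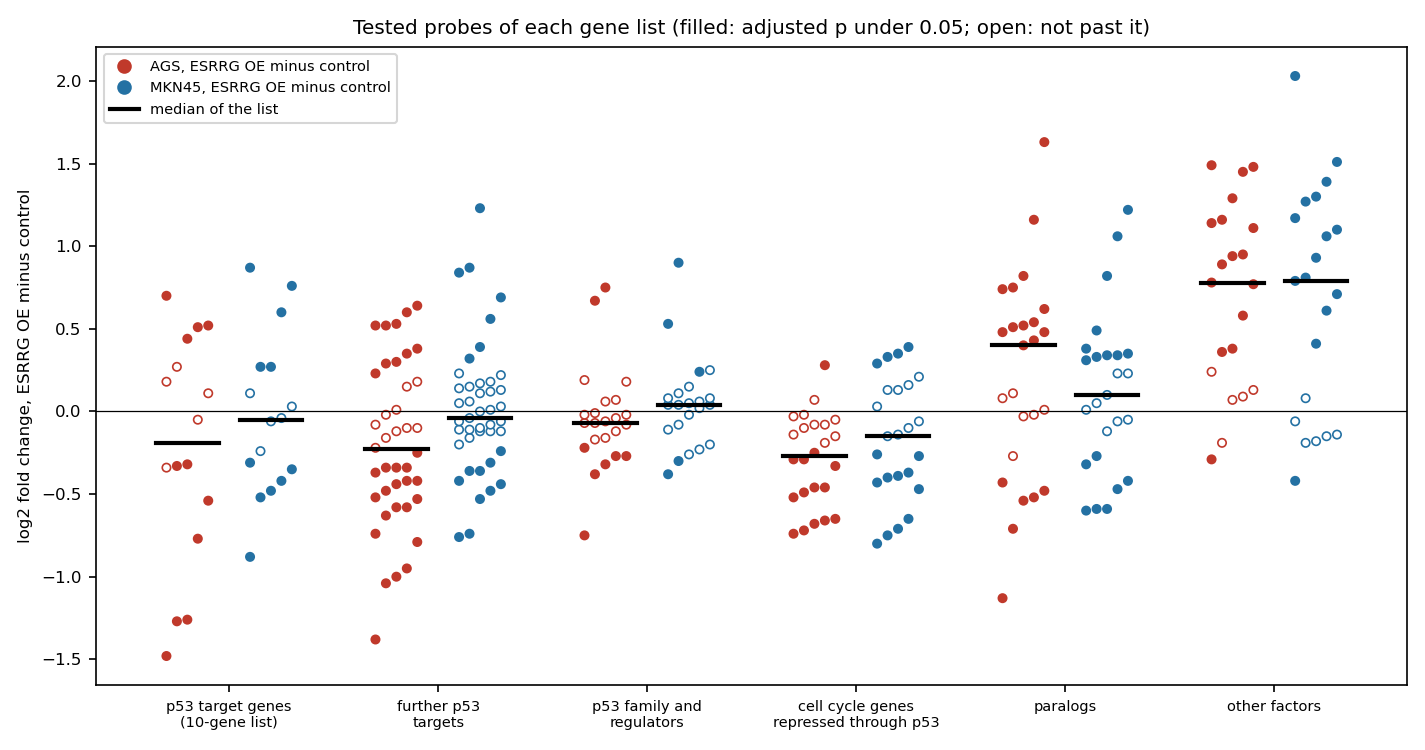
Log2 fold change, ESRRG OE minus control (y axis), of every tested probe of 6 gene lists (x axis) in AGS (red, left) and MKN45 (blue, right). Filled points passed an adjusted p of 0.05, open points did not, and black bars are list medians. The medians of the p53 target genes are -0.19 and -0.05, those of the further targets -0.23 and -0.04, and those of the other factors 0.78 and 0.79.

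Among 14217 named probes, those whose 4 group means most resembled CDKN1A ILMN_1784602 were CAMKK2, NFIC and SUGP2, with root mean square differences of 0.005, 0.012 and 0.019 log2 units after centring. NFIC, for example, was at 7.84 in AGS ESRRG OE and 8.16 in AGS control samples, and at 7.52 in MKN45 ESRRG OE and 8.05 in MKN45 control samples. For MDM2 they were NTPCR, NKAP and TDG, a thymine DNA glycosylase, at 0.03, 0.031 and 0.033. Likeness over 4 means is a description, and no test was made of it.

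The size of several changes depended on how arrays were scaled. Scaling each array to a common median moved the median of all probes to 0.08 in AGS and 0.12 in MKN45 cells, where 71.3% and 89.5% of called probes were then higher, against 47.1% and 49.5% with the deposited values. Scaling to the median of probes detected on all arrays, chosen after seeing the data, gave medians of -0.10 and -0.14 and 36.6% and 32.6% higher. GADD45A, RRM2B ILMN_1698231 and CDKN1A ILMN_1784602 kept their direction in both lines under each of these, as did TP53INP1 and ZMAT3 ILMN_1865764. MDM2 also kept its sign in each line, from -0.63 to -0.17 in AGS and from 0.17 to 0.55 in MKN45 cells over the 4 scalings.

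**Figure D4:**
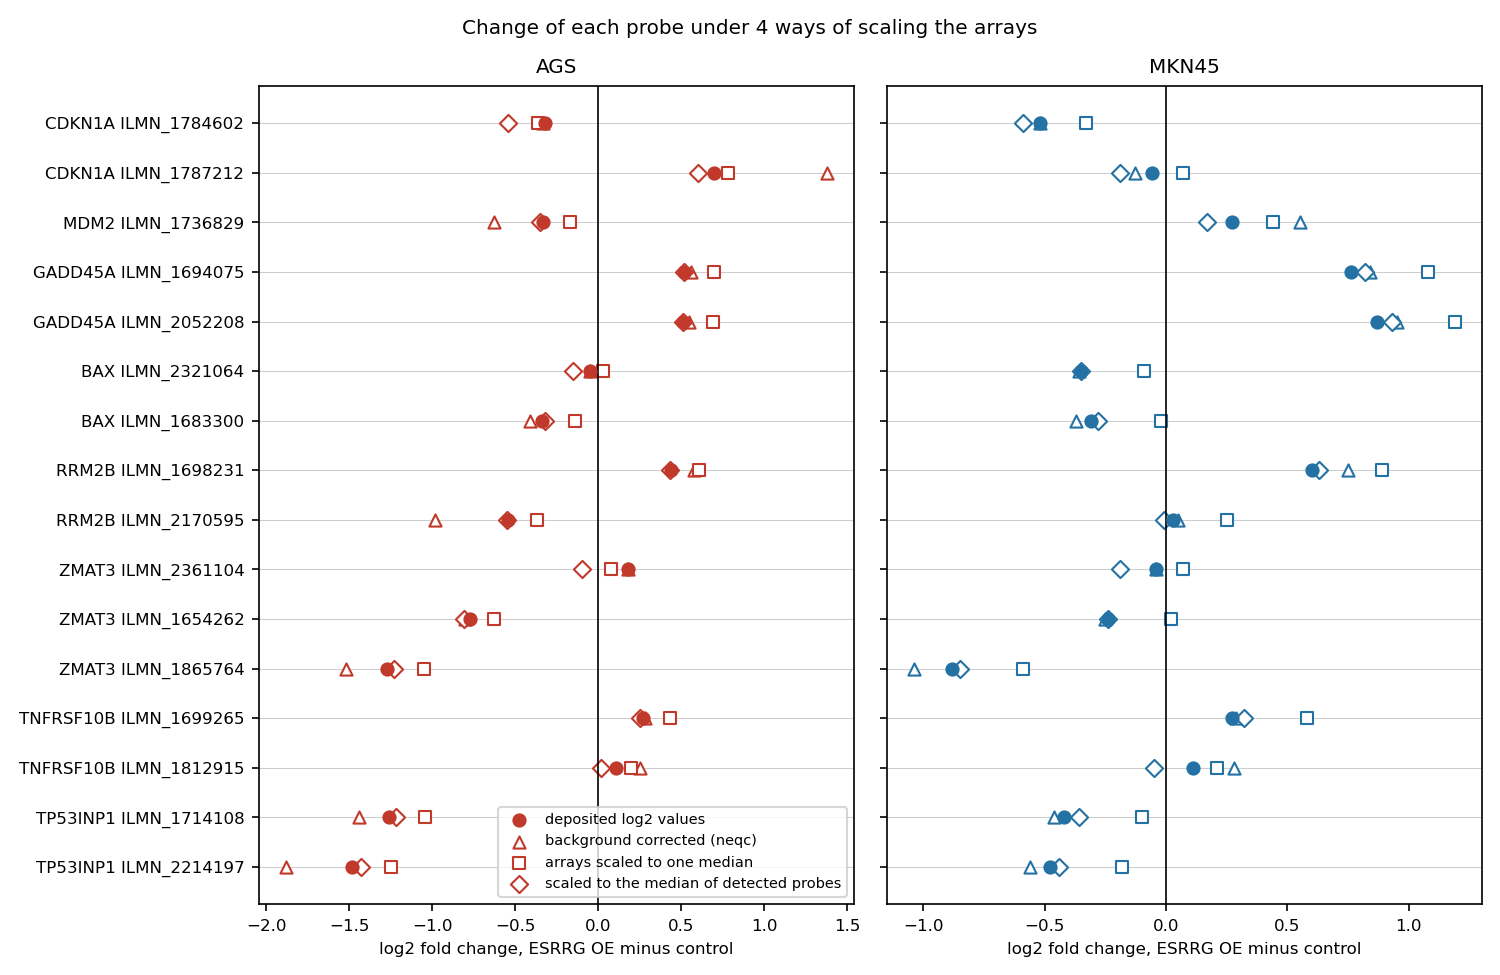
Log2 fold change, ESRRG OE minus control (x axis), of each of the 16 probes (rows) in AGS (left) and MKN45 (right) under 4 scalings: deposited quantile-normalized values (filled circles), background correction (triangles), a common array median (squares) and the median of detected probes (diamonds). Background correction moves the probes near background, such as CDKN1A ILMN_1787212 with 1.38 in AGS cells, and the common median shifts MKN45 values to the right.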

How the data were processed

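RNA from 12 samples was hybridized to Illumina Human BeadChip V4 arrays. The authors scanned them with a BeadArray Reader, and the submitters' processing notes name GenomeStudio, with no version given in the sources used here. They deposited linear probe intensity without normalization, a detection p-value per probe and array, and log2 values made by quantile normalization, which could be rebuilt here from the intensities within 5e-04. These log2 values were tested as deposited with lmFit and eBayes (R 4.3.3, limma 3.58.1) within each line, between controls and as the interaction of line and vector. Probes needed a detection p under 0.05 on at least 3 of 6 arrays, and the Benjamini-Hochberg adjustment ran over all 19304 to 21080 such probes, with a threshold of 0.05. The arrays detected 18795 to 20397 probes each, and replicates correlated at 0.9899 to 0.9962. Precision is limited by 3 arrays a group, and log2 values near background understate folds. Of 47323 probes, 30113 had 1 gene symbol in the platform annotation, 8 had several and 17202 had none and were not named.

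The members, gene lists and comparisons were chosen with earlier results of these data known. All member probes are given, and from the other lists probes past the test, at most the 3 largest rises and falls per list and comparison. Statistics scripts were tested on simulated data. Alternatives were neqc background correction (offset 16), array scaling, quantile normalization within each line or repeated here, and no filter or a detection p under 0.01. Further ones were 1 fit of all 12 arrays, a replicate block, an ordinary t-test and leaving out each replicate. The ordinary t-test used each probe's own variance, and was read after Benjamini-Hochberg or at an unadjusted p under 0.001. The random variance t-test that the study's methods name was not run.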

Additional observations from a re-analysis of the deposited data

Results flagged for a closer look

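The change between ESRRG OE and control samples differed between MKN45 and AGS cells in the test of the difference itself for 6 member probes, given as the MKN45 change minus the AGS change with adjusted p from limma. CDKN1A ILMN_1787212 differed by -0.76 (adjusted p = 0.000295), MDM2 ILMN_1736829 by 0.60 (0.00252), RRM2B ILMN_2170595 by 0.57 (0.0105), ZMAT3 ILMN_1654262 by 0.54 (0.0105), TP53INP1 ILMN_1714108 by 0.84 (0.00359) and TP53INP1 ILMN_2214197 by 1.0 (0.00308). With each of the 12 arrays left out in turn, these differences ranged from -0.82 to -0.71 for the CDKN1A probe, 0.57 to 0.66 for MDM2, 0.46 to 0.67 for RRM2B, 0.47 to 0.59 for ZMAT3, and 0.76 to 0.99 and 0.87 to 1.13 for TP53INP1, and all 6 passed the test each time. CDKN1A and RRM2B each had another probe whose change did not differ between the lines past the threshold (-0.19, adjusted p = 0.386, and 0.16, adjusted p = 0.558). The same held for ZMAT3 ILMN_2361104 (-0.22, adjusted p = 0.379) and ZMAT3 ILMN_1865764 (0.39, adjusted p = 0.0734). The difference at ILMN_2361104 had the opposite sign to that at ILMN_1654262.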

How the results depend on the processing

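No call of a member probe turned its direction under any alternative, and direction was not followed for the other probes. In AGS cells 8398 probes were called, 11 of them member probes, and the ordinary t-test at its unadjusted threshold called 2038 and 4. In MKN45 cells 6916 were called, 11 of them members. The ordinary t-test called 4066 probes and 6 members after Benjamini-Hochberg and 1251 and 3 at its unadjusted threshold. Both neqc and scaling to a common median left 7 members. The calls lost with neqc in MKN45 were both BAX probes (adjusted p = 0.1 and 0.0738), TNFRSF10B ILMN_1699265 (0.0927) and TP53INP1 ILMN_1714108 (0.0504). The ordinary t-test lost these and TP53INP1 ILMN_2214197 (0.14) in MKN45. In AGS the ordinary t-test lost CDKN1A ILMN_1784602 (0.0606) and RRM2B ILMN_1698231 (0.0698). The interaction called 1784 probes, against 969 with neqc and 501 with a common median, and ZMAT3 ILMN_1654262 was then the 1 member lost with neqc (adjusted p = 0.0606). Between the controls 2027 probes and 3 members were called, against 1276 and 1 with neqc and 724 and 0 with a common median. Quantile normalization within each line gave 5597 probes. The ordinary t-test called 402 and 0, and 390 and 0 at its unadjusted threshold. Leaving out 1 array gave 6689 to 7699 calls and 11 to 12 members in AGS, 4691 to 6781 and 8 to 12 in MKN45, 1049 to 1907 and 6 to 7 in the interaction, and 1187 to 1767 and 0 to 3 between controls. The interaction counts fell to 1063 and 1049 without AGS ESRRG OE replicate 1 or 2, and the control count to 1187 without MKN45 control replicate 3.

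Samples share replicate numbers, but their deviations correlated between -0.121 and 0.284 within lines and at 0.309, 0.189 and -0.023 between the controls of the lines, so not every pair was above 0.1 and the numbers were not taken to pair them. With the replicate block 8463 probes and 11 members were called in AGS, 7244 and 12 in MKN45, 1866 and 6 in the interaction, and 2414 and 3 between controls. Probes close to the lowest detected signal (CDKN1A ILMN_1787212, MDM2, RRM2B ILMN_2170595) had changes enlarged over 1.5 times by neqc. With a common median 63.5% of interaction calls and 72.0% of calls between controls were higher, against 48.7% and 46.0% with the deposited values, and quantile normalization within each line gave 89.1% between controls. The causes were not tested.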
